A study of Mus musculus with 11 samples.

Results

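Cardiomyocyte calcium handling was followed through 10 genes taken by name as core parts of the machinery, Ryr2, Casq2, Trdn, Jph2, Atp2a2, Pln, Sln, Cacna1c, Slc8a1 and Camk2d. Each symbol was matched to the Ensembl identifier of a row among the 25006 genes counted in every library. Of the 14779 genes that passed the filter on low counts, 9 were members of the list. Sln, at 0 to 35 reads per library, did not pass and entered no test that used this filter on all libraries.

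With each heartbeat, the L-type calcium channel lets a small amount of calcium into the cardiomyocyte, and this opens ryanodine receptors in the facing membrane of the sarcoplasmic reticulum (SR), which release the larger store that drives contraction. Relaxation follows when the SR calcium pump SERCA2 returns calcium to the store and the sodium-calcium exchanger expels the rest across the plasma membrane. Calcium/calmodulin-dependent kinase phosphorylates several of these proteins, and their levels and phosphorylation are altered in failing and infarcted hearts.

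RNA from left ventricular tissue of 11 mice was sequenced, 1 library per mouse, to compare hearts with and without Vegfc in myeloid cells. The groups were naive control (M44 and M45), naive Vegfc-deficient (M149, M150 and M34), MI control (M006, M38 and M40) and MI Vegfc-deficient (M35, M900 and M913). MI mice had permanent ligation of the coronary artery of the anterior wall, and their infarcted tissue was taken on day 9. Naive tissue had similar mass and position without the injury, and no sex or age is given in the labels of either group. Vegfc-deficient mice were Vegfc fl/fl ; LysMCre, in which Cre is driven from the lysozyme locus of myeloid cells and not by a cardiomyocyte promoter. Control mice are labelled Vegfc fl/fl in the genotype field and LysMCre in the extraction protocol, and this difference between the labels was not settled here. Nothing in the labels ties libraries to a batch.

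Total counts ran from 10824989 to 14585642 in the naive libraries and from 14580756 to 26782728 in the MI libraries. A count of 3, the limit allowed by a count of 0, corresponded to 0.101 to 0.363 CPM (counts scaled to library size, here by edgeR's TMM method), and this limit covers counting error only. The summed CPM of 8 contractile genes of cardiomyocytes was 70272 to 96452 in the naive libraries and 2584 to 24381 in the MI libraries, so every library held cardiomyocyte RNA. Lyz2, which carries the Cre insertion, had 2121 and 2282 CPM in the naive controls, 72.5 CPM in M150 and 245 CPM in M34, but 4565 CPM in M149, so that this library, labelled naive Vegfc-deficient, stood apart from its group. In MI tissue Lyz2 had 4538 to 5380 CPM in the controls and, in the Vegfc-deficient mice, 12.4 CPM in M913, 203 CPM in M900 and 1392 CPM in M35, so that M35 lay above its group and below the MI controls. Vegfc in bulk tissue overlapped between the genotypes in naive and in MI libraries. All MI libraries carried Xist RNA at 188 CPM or more and the naive libraries at most 11.8 CPM, so the sex of the animals and MI cannot be told apart in any comparison of MI with naive tissue.

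The members lie on 8 chromosomes of mouse build GRCm38, and the 4 promoters below are shown because the genes behind them differed in how they moved with the cardiomyocyte marker Tnnt2 after MI. Pln and Casq2 fell and did not differ from Tnnt2 beyond the error of the test, whereas Slc8a1 and Camk2d were higher relative to Tnnt2. So were 91.6% of all genes in control and 88.8% in Vegfc-deficient mice. RefSeq promoter windows on GRCm38.p6 were matched for 7 of the 10 members, in 10 windows, with no entry for Atp2a2, Sln and Trdn. Each line gives the 250 bases before the start annotated in RefSeq on the strand of the gene, 5′ to 3′, with matches to any of the motifs searched in capitals. These starts can differ from the gene coordinates given below, which are from GENCODE. The Camk2d window lies inside the GENCODE gene, which starts at 126596302, and the Pln window ends past its GENCODE start at 53337667.
Pln, chr10:53337436-53337685, plus strand: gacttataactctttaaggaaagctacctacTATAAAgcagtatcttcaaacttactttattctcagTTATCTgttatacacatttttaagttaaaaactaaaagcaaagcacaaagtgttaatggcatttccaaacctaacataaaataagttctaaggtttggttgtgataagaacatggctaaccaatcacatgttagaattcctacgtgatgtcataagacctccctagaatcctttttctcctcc
Casq2, chr3:102086165-102086414, plus strand: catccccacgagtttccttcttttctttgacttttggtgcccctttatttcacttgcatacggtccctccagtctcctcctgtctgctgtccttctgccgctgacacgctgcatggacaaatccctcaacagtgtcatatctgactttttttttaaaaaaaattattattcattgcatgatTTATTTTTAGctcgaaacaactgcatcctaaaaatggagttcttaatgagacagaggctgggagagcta
Slc8a1, chr17:81738388-81738637, minus strand: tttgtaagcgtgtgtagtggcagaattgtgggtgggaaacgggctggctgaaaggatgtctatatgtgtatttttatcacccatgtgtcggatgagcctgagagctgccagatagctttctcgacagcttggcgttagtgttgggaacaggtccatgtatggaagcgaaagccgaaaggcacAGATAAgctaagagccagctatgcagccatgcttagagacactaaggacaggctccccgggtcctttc
Camk2d, chr3:126596701-126596950, plus strand: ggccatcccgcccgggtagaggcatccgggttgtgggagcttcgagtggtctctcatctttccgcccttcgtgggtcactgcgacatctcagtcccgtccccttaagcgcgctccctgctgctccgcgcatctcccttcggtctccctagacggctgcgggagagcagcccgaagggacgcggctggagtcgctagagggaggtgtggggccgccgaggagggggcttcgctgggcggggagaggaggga

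The motifs searched on both strands of these windows were the TATA box as TATAAA, a core bound by GATA factors as AGATAA, the core of the TEAD site as CATTCC, a core bound by NKX2-5 as TNAAGTG, the MEF2 motif and the CArG box bound by serum response factor. None of these motifs overlapped another in the 4 windows. Pln held TATAAA at 219 to 214 bases before the start and AGATAA, on the opposite strand, at 183 to 178 bases. Casq2 held the MEF2 motif at 69 to 60 bases, and Slc8a1 held AGATAA at 68 to 63 bases. The Camk2d window held none of these letters, and its GC content was 68.4%, against 32.8% for Pln, 41.6% for Casq2 and 50.4% for Slc8a1. The Ryr2 window, not shown, also held none, at 63.2% GC. Ryr2 too did not differ from Tnnt2 beyond the error of the test. No match was found in the windows of Jph2 and Cacna1c either. A link of these letters to the change after MI was not tested. Among 32851 promoter windows of the same length, TATAAA was found in 12.4%, AGATAA in 9.99%, CATTCC in 12.6%, TNAAGTG in 10.1%, the MEF2 motif in 2.92% and the CArG box in 1.47%. A match describes the letters in the window and not a bound site.

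In MI tissue of control mice, 8 of the 9 tested members were lower than in naive tissue in the quasi-likelihood test of edgeR, with a p adjusted by Benjamini-Hochberg of less than 0.05, where 24.1% of all genes tested were lower by the same rule. In all 9 members every MI control library lay below both naive control libraries, which held for 33% of all genes. In Vegfc-deficient mice 8 of 9 were likewise lower, against 27.7% of all genes, and 8 of 9 did not overlap, against 30.7%. The median log2 fold change of the 9 members was -2.65 in control and -2.21 in Vegfc-deficient mice, and that of all genes tested was 0.13 and 0.10. These counts were the same without M149, in which 8 of 9 members were again lower. The change in level cannot be assigned to the cell, since in bulk tissue fewer cardiomyocytes and less RNA per cardiomyocyte cannot be told apart.

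Ryr2 (ENSMUSG00000021313, chromosome 13, 11553102 to 12106945, minus strand) encodes the cardiac ryanodine receptor, the release channel of the SR. Naive controls M44 and M45 had 625 and 631 CPM, and the naive Vegfc-deficient mice M149, M150 and M34 had 495, 768 and 483 CPM. In MI tissue, controls M006, M38 and M40 had 91.7, 116 and 24.5 CPM and the Vegfc-deficient mice M35, M900 and M913 had 221, 56.2 and 93.5 CPM. The highest MI library, M35, stayed below the lowest naive library, and M40 was the lowest of all. Ryr2 was 8.12-fold lower in MI control than in naive control tissue (log2 fold change -3.02, standard error 0.64, adjusted p = 0.00342 by that edgeR test, as for all adjusted p-values below), and 4.72-fold lower in the Vegfc-deficient groups (log2 fold change -2.24, standard error 0.59, adjusted p = 0.00818).

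Casq2 (ENSMUSG00000027861, chromosome 3, 102086415 to 102146514, plus strand) encodes cardiac calsequestrin, which binds calcium inside the SR. Its level was 1185 and 1355 CPM in the naive controls, and in the naive Vegfc-deficient mice it was 888 CPM in M149, 1780 CPM in M150 and 1288 CPM in M34. The MI controls had 201 CPM in M006, 326 CPM in M38 and 80.8 CPM in M40, and the MI Vegfc-deficient mice had 557 CPM in M35, 122 CPM in M900 and 174 CPM in M913. MI and naive libraries did not overlap, and M35 came nearest to the naive range. The log2 fold change was -2.65 in control (standard error 0.67, adjusted p = 0.00817) and -2.21 in Vegfc-deficient mice (standard error 0.62, adjusted p = 0.0114), and the second was -1.96 with an adjusted p of 0.0515 without M913.

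Trdn (ENSMUSG00000019787, chromosome 10, 33080554 to 33476709, plus strand) encodes triadin, which anchors calsequestrin to the ryanodine receptor. Naive control libraries held 846 and 934 CPM, and naive Vegfc-deficient mice M149, M150 and M34 held 988, 1332 and 884 CPM. MI control mice M006, M38 and M40 held 155, 155 and 31.4 CPM, and MI Vegfc-deficient mice M35, M900 and M913 held 255, 67.7 and 99.6 CPM. The MI and naive ranges did not overlap, and the lowest library was again M40. The level was 7.83-fold lower in control (log2 fold change -2.97, standard error 0.66, adjusted p = 0.00441) and 7.60-fold lower in Vegfc-deficient MI tissue (log2 fold change -2.93, standard error 0.63, adjusted p = 0.00274).

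Jph2 (ENSMUSG00000017817, chromosome 2, 163336242 to 163397993, minus strand) encodes junctophilin 2, which holds the plasma membrane and the SR close together at the dyad. It was at 200.4 and 170.1 CPM in naive controls and the naive Vegfc-deficient mice M149, M150 and M34 gave 156, 177 and 166 CPM. The MI controls M006, M38 and M40 gave 35.1, 63.3 and 43.0 CPM, and the MI Vegfc-deficient mice M35, M900 and M913 gave 60.8, 44.99 and 66.0 CPM. Here the MI libraries lay close to each other, and M40 was not the lowest. The log2 fold change was -1.97 in control (standard error 0.24, adjusted p = 0.000286) and -1.54 in Vegfc-deficient mice (standard error 0.22, adjusted p = 0.000276).

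Atp2a2 (ENSMUSG00000029467, chromosome 5, 122453513 to 122502225, minus strand) encodes SERCA2, the calcium pump that refills the SR. Naive control libraries held 7089 and 6679 CPM, and naive Vegfc-deficient mice M149, M150 and M34 held 5493, 8083 and 5516 CPM. In MI tissue the controls M006, M38 and M40 held 707, 1108 and 243 CPM, and the Vegfc-deficient mice M35, M900 and M913 held 1856, 515 and 745 CPM. No MI library reached the naive range. In control mice the log2 fold change was -3.33 (standard error 0.65, adjusted p = 0.00227), the largest fall among the members in that genotype, and in Vegfc-deficient mice it was -2.62 (standard error 0.60, adjusted p = 0.00404).

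Pln (ENSMUSG00000038583, chromosome 10, 53337667 to 53345987, plus strand) encodes phospholamban, the inhibitor of SERCA2 that is relieved by phosphorylation. Its level was 7105 and 7639 CPM in naive controls and the naive Vegfc-deficient mice had 6327 CPM in M149, 9438 CPM in M150 and 7249 CPM in M34. Among MI controls M006 had 817 CPM, M38 1273 CPM and M40 187 CPM, and among MI Vegfc-deficient mice M35 had 2050 CPM, M900 419 CPM and M913 714 CPM. On the log2 scale these MI values had the widest spread of any tested member, and none overlapped the naive values. The level fell by 3.28 on the log2 scale in control (standard error 0.77, adjusted p = 0.0058) and by 2.85 in Vegfc-deficient mice (standard error 0.72, adjusted p = 0.00677). Exons of Pln share 1644 bases with Gm47644 and 141 bases with Cep85l on the opposite strand, and whether counting used strand is not given in the sources used here, so reads of these stretches may be uncertain.

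Sln (ENSMUSG00000042045, chromosome 9, 53850164 to 53854560, plus strand) encodes sarcolipin, a regulator of SERCA that is abundant in atrium. Its counts were 0 and 1 in the naive controls and 0 in each naive Vegfc-deficient library. The MI controls had 3 counts in M006, 1 in M38 and 0 in M40, and the MI Vegfc-deficient mice had 35 in M900 and 0 in M35 and M913. Only M900, at 1.47 CPM, lay above the limit that a count of 0 allows. The 3 atrial markers Myl7, Myl4 and Bmp10 summed to 5.26 to 11.8 CPM in naive and 6.34 to 10.99 CPM in MI libraries, with M900 at 10.99 CPM, Myl4 at 8.85 CPM, Myl7 at 2.14 CPM and Bmp10 at 0 there. The 7 skeletal muscle markers summed to 14.8 CPM in M900, within the 9.33 to 24.6 CPM of all libraries. A part of atrial or skeletal muscle RNA in that Sln value was not tested, and the nearest genes by pattern could not be found for a gene that did not pass the filter.

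Cacna1c (ENSMUSG00000051331, chromosome 6, 118587240 to 119196418, minus strand) encodes the pore of the L-type calcium channel. Naive controls were at 54.1 and 54.7 CPM and naive Vegfc-deficient mice M149, M150 and M34 at 52.8, 54.0 and 64.6 CPM. MI control mice M006, M38 and M40 were at 16.8, 22.9 and 18.5 CPM and MI Vegfc-deficient mice M35, M900 and M913 at 39.1, 22.6 and 20.8 CPM. All MI libraries were below all naive libraries, with M35 apart from the other MI libraries. The channel gene was 2.80-fold lower in control (log2 fold change -1.49, standard error 0.25, adjusted p = 0.00107) and 2.08-fold lower in Vegfc-deficient tissue (log2 fold change -1.06, standard error 0.23, adjusted p = 0.00274).

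Slc8a1 (ENSMUSG00000054640, chromosome 17, 81373105 to 81738377, minus strand) encodes the sodium-calcium exchanger NCX1. It was at 17.6 and 17.9 CPM in naive controls and the naive Vegfc-deficient mice M149, M150 and M34 had 15.9, 19.1 and 13.5 CPM. The MI controls M006, M38 and M40 had 8.99, 12.6 and 13.9 CPM, and the MI Vegfc-deficient mice M35, M900 and M913 had 28.0, 15.8 and 14.95 CPM. The MI control libraries were below the naive controls, whereas the MI Vegfc-deficient libraries overlapped the naive ones and M35 was the highest of all 11. The log2 fold change was -0.58 in control (standard error 0.29, adjusted p = 0.118) and 0.28 in Vegfc-deficient mice (standard error 0.26, adjusted p = 0.383), and neither passed the threshold. In control mice limma-voom gave an adjusted p of 0.0411 for it, and leaving out M35 gave 0.0433 in the edgeR fit. Its 3′ end shares 296 bases with AC122399.1 on the opposite strand, and at 158 to 477 reads per library it was the least counted of the tested members.

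Camk2d (ENSMUSG00000053819, chromosome 3, 126596302 to 126846326, plus strand) encodes the main cardiac isoform of calcium/calmodulin-dependent kinase II. It was at 108 and 119 CPM in naive controls and the naive Vegfc-deficient mice M149, M150 and M34 had 99.8, 139 and 117 CPM. MI control mice M006, M38 and M40 were at 73.4, 81.1 and 62.5 CPM and MI Vegfc-deficient mice M35, M900 and M913 at 92.3, 76.6 and 71.7 CPM. The groups did not overlap, but the fall was the smallest among the members that passed the test. It was 1.57-fold in control (log2 fold change -0.65, standard error 0.18, adjusted p = 0.0119) and 1.48-fold in Vegfc-deficient mice (log2 fold change -0.56, standard error 0.16, adjusted p = 0.0123). The adjusted p was 0.088 in control without M45 and 0.0522 in Vegfc-deficient mice without M150.

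**Figure D1:**
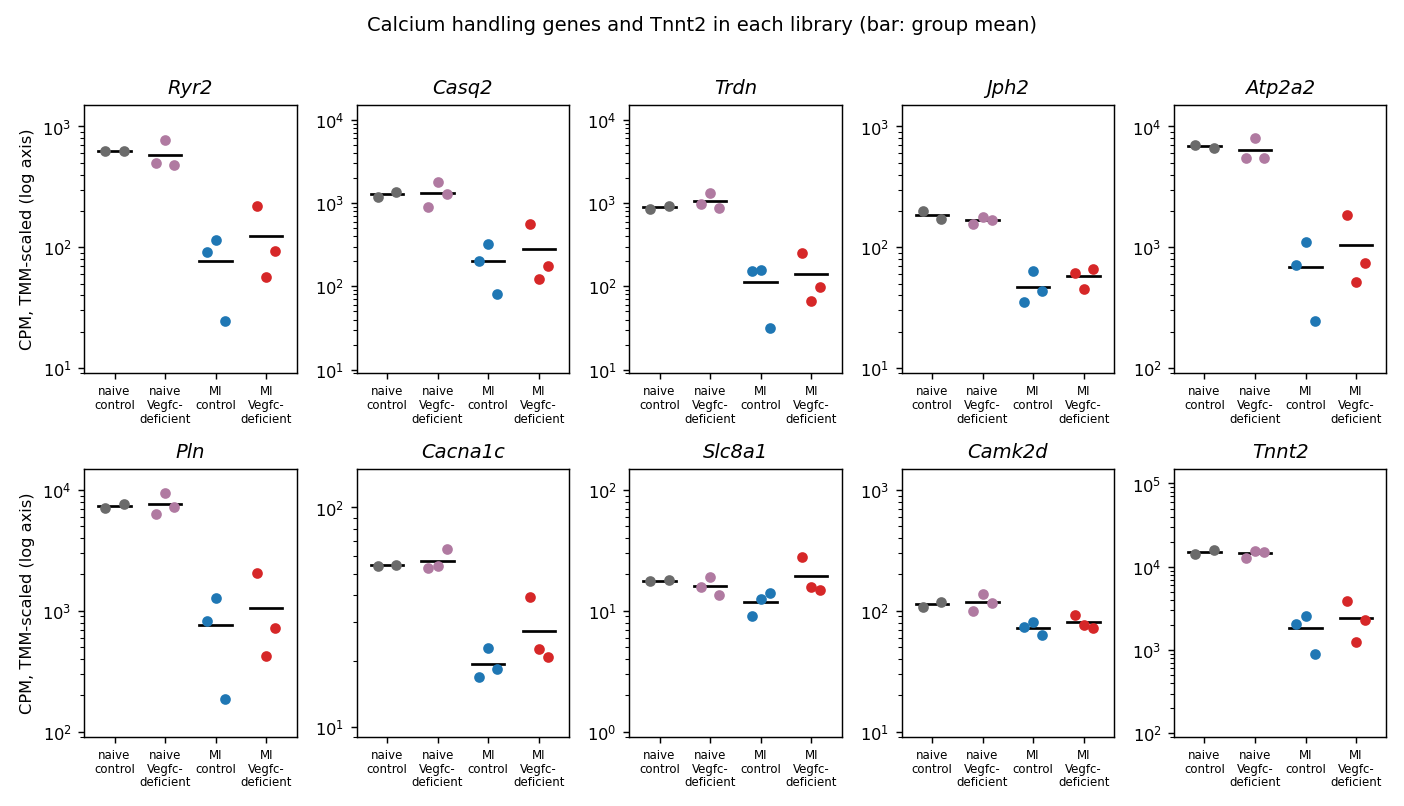
CPM of the 9 tested members and Tnnt2 in each of the 11 libraries, on a log axis that differs between panels, with 1 point per library and a bar at the group mean. Ryr2, Casq2, Trdn, Atp2a2 and Pln fall with Tnnt2 in the MI libraries and are lowest in M40 at 24.5, 80.8, 31.4, 243 and 187 CPM, while Slc8a1 in MI Vegfc-deficient libraries overlaps the naive range.

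The members differed among themselves in how they varied across the 6 MI libraries. For Ryr2, Casq2, Trdn, Atp2a2 and Pln, M40 was the lowest and M35 the highest MI library, and so it was for Tnnt2, the cardiac troponin T gene, at 899 CPM in M40 and 3835 CPM in M35. The standard deviation of log2 CPM within genotype over the MI libraries was 1.04 for Atp2a2, 1.09 for Casq2, 1.11 for Ryr2, 1.17 for Trdn and 1.32 for Pln. Relative to Tnnt2 the standard deviation of the log2 ratio narrowed to 0.32 for Atp2a2, 0.35 for Ryr2, 0.38 for Casq2, 0.46 for Trdn and 0.55 for Pln. The remaining members went the other way. Their standard deviation of log2 CPM was 0.19 for Camk2d, 0.37 for Jph2, 0.38 for Cacna1c and 0.42 for Slc8a1, and the ratio to Tnnt2 widened it to 0.66, 0.68, 0.64 and 0.80. The median gene had 0.27 in log2 CPM and 0.86 in the ratio. The contractile sum followed the same order, from 2584 CPM in M40 to 24381 CPM in M35.

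**Figure D2:**
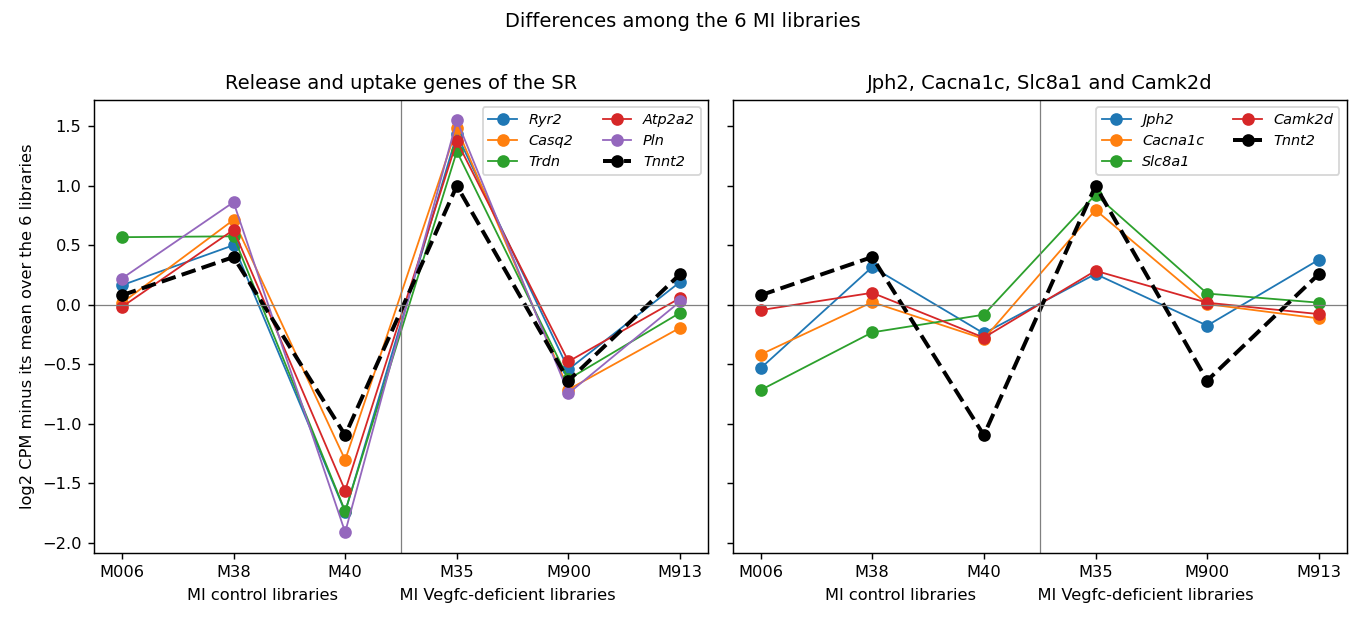
Level of each member in the 6 MI libraries as log2 CPM minus its mean over these libraries, with Tnnt2 as a dashed line in both panels. The SR release and uptake genes on the left run along with Tnnt2 from the lowest library M40 to the highest M35, with standard deviations of 1.04 to 1.32, while Jph2, Cacna1c, Slc8a1 and Camk2d on the right vary less, at 0.19 to 0.42.

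Levels were next set against cardiomyocyte content by scaling every library to its Tnnt2 count in the same edgeR fit. Tnnt2 fell by 3.03 on the log2 scale in control (standard error 0.54, adjusted p = 0.00141) and by 2.56 in Vegfc-deficient mice (standard error 0.50, adjusted p = 0.00164). Relative to Tnnt2, none of Ryr2, Casq2, Trdn, Atp2a2 and Pln passed the test in either genotype, with log2 fold changes from -0.42 to 0.31 in control and from -0.43 to 0.26 in Vegfc-deficient mice. Their standard errors of 0.41 to 0.53 leave changes of that size undetected. Of the 9 members 3 were higher relative to Tnnt2 in control mice, where 91.6% of all genes were higher by the same rule, and 4 in Vegfc-deficient mice, where 88.8% of all genes were. A member higher relative to Tnnt2 was therefore in the position of most genes in the tissue, and the members that did not pass were in the smaller share.

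Per 1000 Tnnt2 reads, Atp2a2 had 504 and 426 reads in naive controls and 349, 437 and 270 in MI control mice M006, M38 and M40. The naive Vegfc-deficient mice M149, M150 and M34 had 431, 519 and 369 reads per 1000 of Tnnt2, and the MI Vegfc-deficient mice M35, M900 and M913 had 484, 417 and 325. These ranges overlapped in Vegfc-deficient mice and in control mice. Atp2a2 relative to Tnnt2 differed between MI and naive tissue by a log2 fold change of -0.40 in control (standard error 0.46, adjusted p = 0.404) and -0.11 in Vegfc-deficient mice (standard error 0.41, adjusted p = 0.811). Pln had 485 to 606 reads per 1000 Tnnt2 reads over the naive libraries and 208 to 535 over the MI libraries, with M40 the lowest. Ryr2 had 32.3 to 49.3 in naive and 27.3 to 57.5 in MI libraries. The pump, its inhibitor and the release channel thus overlapped between MI and naive tissue in reads per Tnnt2 read. Casq2 had 84.2 and 86.5 reads per 1000 Tnnt2 reads in naive controls and 89.9 to 129 in MI controls. These did not overlap, as was so, with MI the higher, for 95% of all genes relative to Tnnt2. The log2 fold change of Casq2, 0.31 (standard error 0.52, adjusted p = 0.564), did not pass.

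Slc8a1 had 0.903 to 1.25 reads per 1000 Tnnt2 reads in the naive libraries and 4.43, 4.96 and 15.5 in MI control mice M006, M38 and M40. In MI Vegfc-deficient mice M35, M900 and M913 it had 7.31, 12.8 and 6.52. Every MI library was above every naive library, and M40, with the least Tnnt2, was the highest. The log2 fold change relative to Tnnt2 was 2.79 in control (standard error 0.69, adjusted p = 0.000638) and 2.98 in Vegfc-deficient mice (standard error 0.59, adjusted p = 8.62e-05), where the median of all genes was 3.43 and 2.95. Camk2d rose relative to Tnnt2 by 2.59 (standard error 0.63, adjusted p = 0.000601) and 2.26 (standard error 0.53, adjusted p = 0.000452), and Cacna1c by 1.78 (standard error 0.61, adjusted p = 0.0088) and 1.65 (standard error 0.53, adjusted p = 0.0054), in the same order of genotypes. For Jph2 the log2 fold change was 1.26 in control (standard error 0.60, adjusted p = 0.0504) and 1.22 in Vegfc-deficient mice (standard error 0.52, adjusted p = 0.0316). That call was lost without any 1 of M149, M150, M34, M900 and M913. It did not hold without M44 or M45 either, each of which leaves 1 naive control library. With the geometric mean of 7 other contractile genes as the reference, Jph2 (adjusted p = 0.15) and Cacna1c (adjusted p = 0.0601) did not pass in Vegfc-deficient mice. Markers of some cells other than cardiomyocytes were higher in MI tissue. The sum of 7 fibroblast markers was 4786 to 6674 CPM in naive and 29886 to 47496 CPM in MI libraries, and that of 5 smooth muscle markers was 144 to 276 CPM and 581 to 2445 CPM. The sum of 6 macrophage markers overlapped, at 929 to 1675 CPM and 1448 to 2952 CPM. That of 5 endothelial markers did not rise, at 688 to 1082 CPM in naive and 442 to 889 CPM in MI libraries. The part of these cells in the result was not tested.

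**Figure D3:**
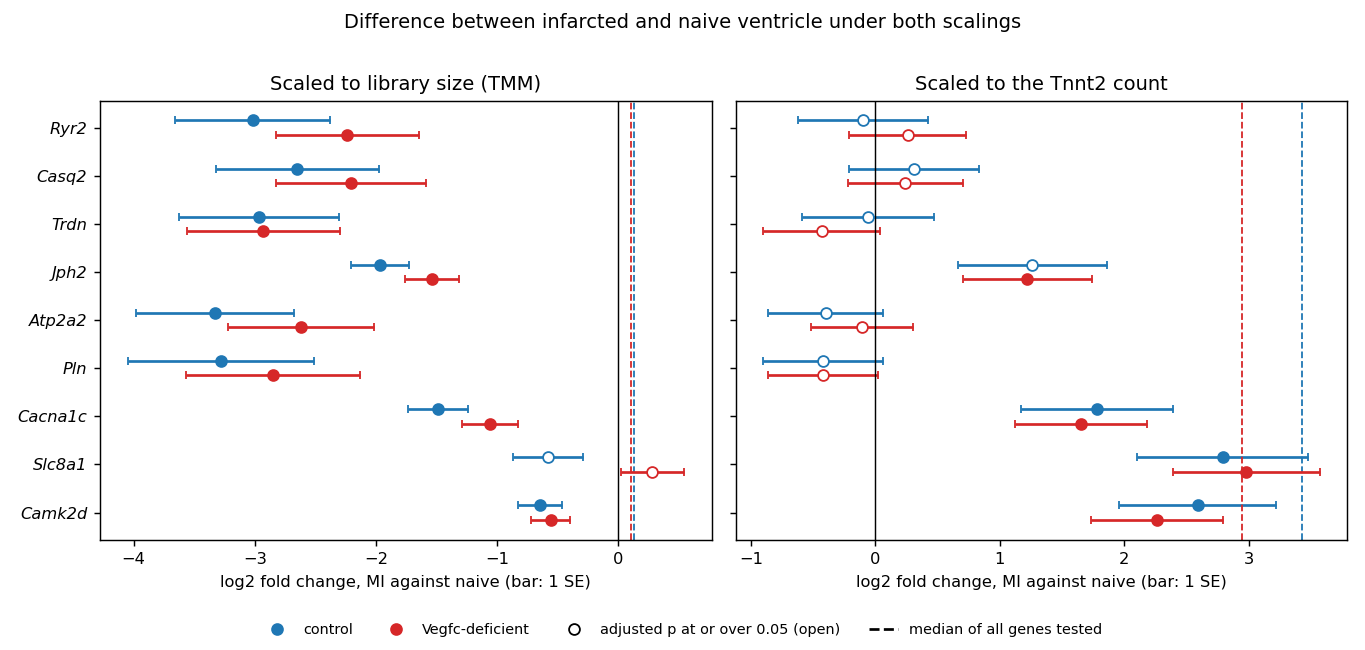
Log2 fold change of MI against naive tissue for each tested member, with bars of 1 standard error, in control (blue) and Vegfc-deficient mice (red), scaled to library size on the left and to the Tnnt2 count on the right. Open points did not pass an adjusted p of 0.05, and dashed lines mark the median of all genes, which moves from 0.13 and 0.10 on the left to 3.43 and 2.95 on the right.

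Ratios between members within a library do not depend on scaling between libraries. They do depend on the mix of cells in the tissue, and the part of that mix was not tested. Atp2a2 fell by 3.33 and 2.62 on the log2 scale in control and Vegfc-deficient mice, where the median of all genes was 0.13 and 0.10. A gene at that median was therefore also higher relative to Atp2a2 after MI. The log2 ratio of Slc8a1 to Atp2a2, exchanger to pump, was -8.59 ± 0.078 (SD, n = 2) in naive control and -8.60 ± 0.16 (SD, n = 3) in naive Vegfc-deficient libraries, against -5.61 ± 1.30 (SD, n = 3) in MI control and -5.56 ± 0.51 (SD, n = 3) in MI Vegfc-deficient libraries. It was 8.05-fold higher after MI, with every MI library above every naive one (two-sided exact permutation test within genotype, p = 0.005, the smallest that the 200 arrangements allow, and p = 0.01 after adjustment over 4 ratios). The ratio of Cacna1c to Ryr2, channel to release channel, was 2.96-fold higher (exact permutation p = 0.005, adjusted p = 0.01), from -3.83 to -2.90 on the log2 scale in naive and from -2.49 to -0.41 in MI libraries. Ryr2 to Atp2a2 moved by less, 1.26-fold (exact permutation p = 0.01, adjusted p = 0.0133), from -3.51 to -3.40 in naive and from -3.30 to -2.95 in MI libraries. Pln to Atp2a2, inhibitor to pump, was 0.10 ± 0.13 (SD, n = 2) in naive control, 0.27 ± 0.10 (SD, n = 3) in naive Vegfc-deficient, 0.01 ± 0.34 (SD, n = 3) in MI control and -0.07 ± 0.22 (SD, n = 3) in MI Vegfc-deficient libraries, and the difference between MI and naive tissue did not pass (log2 difference -0.22, exact permutation p = 0.155). No ratio passed when either naive control library was left out. That also left fewer arrangements, and the part of their smaller number in this loss was not tested. The lowest log2 differences over all libraries left out were 2.63 for Slc8a1 to Atp2a2 and 1.23 for Cacna1c to Ryr2.

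**Figure D4:**
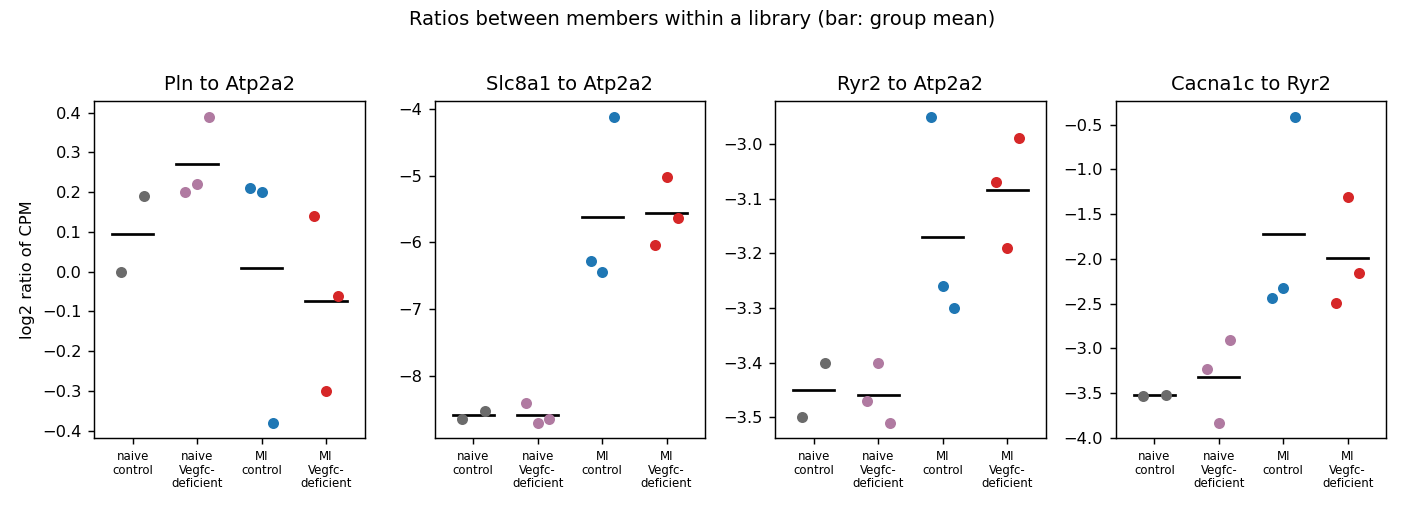
Log2 ratio of CPM between pairs of members in each library, with 1 point per library, a bar at the group mean and its own linear axis in each panel. Slc8a1 to Atp2a2 lies near -8.60 in naive libraries and between -6.45 and -4.11 in MI libraries, while Pln to Atp2a2 overlaps between the groups.

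Between MI Vegfc-deficient and MI control tissue, 0 of 9 members and 0% of all genes tested passed an adjusted p of 0.05 in edgeR's quasi-likelihood test. At an unadjusted p under 0.05 it was 1 member, Slc8a1, against 7.94% of all genes, and limma-voom called 0 members and 0 genes. DESeq2 called 0 members among the 50 genes it called. All 9 log2 fold changes were above 0, from 0.15 for Camk2d to 0.72 for Slc8a1, with a median of 0.49. Of all genes tested, 7227 of 14779 were above 0, with a median of -0.01. Tnnt2 itself was at 0.43 (standard error 0.47, adjusted p = 0.85). All 8 contractile genes of cardiomyocytes were also above 0, with a median of 0.56. Slc8a1 was also the only member in which all MI Vegfc-deficient libraries lay above all MI control libraries, a pattern that 5.99% of all genes had. Its standard error was 0.26 and its adjusted p 0.584, and the log2 fold change was 0.37 without M35. For Atp2a2 the log2 fold change was 0.60 (standard error 0.57, adjusted p = 0.825), for Pln 0.48 (standard error 0.67, adjusted p = 0.888) and for Ryr2 0.67 (standard error 0.57, adjusted p = 0.797). Without M35, the MI library with the highest contractile sum and the highest Lyz2 of its group, these became -0.12, -0.42 and -0.05, and Casq2 and Trdn turned negative too, at -0.46 and -0.44. Trdn also turned to -0.14 without M40.

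Relative to Tnnt2, 0 of 9 members differed between the MI groups, with 0% of all genes called, and the log2 fold changes ran from -0.23 for Camk2d to 0.28 for Ryr2, with standard errors of 0.41 to 0.55. In ratios between members, the smallest p that 3 against 3 libraries allow is 0.1, and the exact permutation p-values ran from 0.6 to 1. Slc8a1 to Atp2a2 differed by a factor of 1.03 between the genotypes after MI, and Pln to Atp2a2 by a factor of 0.945. In naive tissue 0 of 9 members passed, with 0% of all genes. The log2 fold changes of Vegfc-deficient against control ran from -0.15 for Jph2 to 0.26 for Trdn, with standard errors of 0.18 for Camk2d to 0.75 for Pln. The interaction of MI and genotype passed for 0 of 9 members and 0% of all genes, with log2 differences of 0.04 for Trdn to 0.85 for Slc8a1 (standard error 0.39, adjusted p = 0.604). Its standard errors ran from 0.24 for Camk2d to 1.01 for Pln. In both of these comparisons 0 of 9 members had an unadjusted p under 0.05 in edgeR, and DESeq2 and limma-voom called 0 members, while DESeq2 called 14 genes between the naive genotypes and 54 in the interaction and limma-voom called 6 and 0. A difference of the size of these standard errors could not be detected with 2 or 3 libraries per group.

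Per kilobase of annotated exon, Pln had the highest level in naive control tissue at 2672 CPM per kilobase, followed by Atp2a2 at 1132, Casq2 at 464, Trdn at 95.2, Jph2 at 43.5, Ryr2 at 21.8, Camk2d at 5.04, Cacna1c at 2.57, Slc8a1 at 0.942 and Sln at 0.0344 CPM per kilobase. No neighbours in this order overlapped between libraries in either naive group. In MI control tissue the order was Pln at 275, Atp2a2 at 113, Casq2 at 74.1, Trdn at 12.2, Jph2 at 11.1, Camk2d at 3.22, Ryr2 at 2.69, Cacna1c at 0.915 and Slc8a1 at 0.629 CPM per kilobase. Camk2d thus passed Ryr2, but their ranges overlapped, as did those of Pln and Atp2a2, of Atp2a2 and Casq2, of Trdn and Jph2 and of Ryr2 and Cacna1c. The MI Vegfc-deficient libraries kept the naive order, with Ryr2 at 4.29 and Camk2d at 3.56 CPM per kilobase and with overlapping ranges. With the length of the longest transcript in place of all exons, the naive orders of the means were the same, and 2 members changed place in MI control and 3 in MI Vegfc-deficient tissue. By that length Jph2, at 37.1 to 42.0 CPM per kilobase, and Ryr2, at 28.7 to 45.7, did overlap in the naive Vegfc-deficient libraries.

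**Figure D5:**
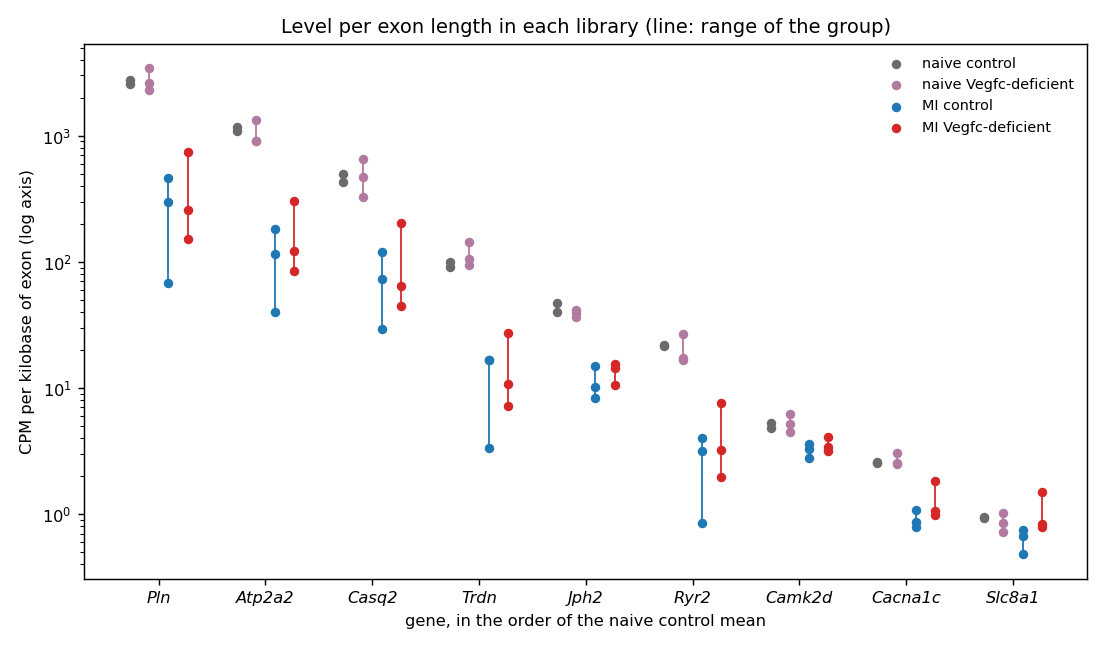
CPM per kilobase of exon of the 9 tested members in each library on a log axis, ordered by the naive control mean, with a line over the range of each group. Neighbouring genes are apart in the naive groups, from 2672 CPM per kilobase for Pln to 0.942 for Slc8a1, while the ranges widen and overlap in the MI groups.

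The gene whose pattern over the 11 libraries was most like each member was found by the root mean square difference of centred log2 CPM. The nearest gene was Lrrc3b for Ryr2 (0.153), Fhod3 for Casq2 (0.145), Apobec2 for Trdn (0.14), Coq8a for Atp2a2 (0.144) and Cpt1b for Pln (0.163). It was Cox10 for Jph2 (0.088), Ppp1r12b for Slc8a1 (0.196), Gys1 for Cacna1c (0.157) and Dars for Camk2d (0.064). No member had another member as its nearest gene.

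Around the members, 74 further calcium handling genes were listed, of which 67 were tested. Of the 10 listed uptake genes, 7 were matched by symbol to a counted gene and 6 were tested. In control mice 27 of them were lower and 7 higher after MI, where 24.1% and 26.3% of all genes were, and in Vegfc-deficient mice 28 were lower and 13 higher, where 27.7% and 30% were. In both genotypes 29 passed, all in the same direction, 23 lower and 6 higher. Among the genes of release and the SR lumen, Hrc, the histidine-rich calcium-binding protein, fell by 3.66 on the log2 scale in control (standard error 0.78, adjusted p = 0.00367) and by 2.58 in Vegfc-deficient mice (standard error 0.72, adjusted p = 0.0108). Srl, sarcalumenin, fell by 2.92 in control, Tmem38a, a potassium channel of the SR, by 2.92 and 2.56, and S100a1, a calcium sensor of SERCA and the ryanodine receptor, by 2.32 in Vegfc-deficient mice. Among the uptake genes, Mrln, a micropeptide that inhibits SERCA, fell by 3.06 and 3.10 and Hspb6, a small heat shock protein, by 2.83 in control. At the plasma membrane, Cav3, caveolin 3, fell by 2.61 in Vegfc-deficient mice.

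Of the 6 listed genes that were higher in both genotypes, the 5 with the largest rise were Trpc6, Cacna1d, Fkbp1b, Itpr3 and Itpr2. Trpc6, a receptor-operated cation channel, rose by 1.62 on the log2 scale in control (standard error 0.53, adjusted p = 0.0265) and 2.14 in Vegfc-deficient mice (standard error 0.49, adjusted p = 0.00378). Cacna1d, an L-type channel pore of the sinoatrial node and neurons, rose by 1.36 and 2.10, Fkbp1b, a binding partner of the ryanodine receptor, by 1.20 and 1.04, Itpr3 by 1.16 and 0.98 and Itpr2 by 0.52 and 0.66, the last being receptors for inositol trisphosphate. In the kinases, phosphatases and anchors, 9 of 21 fell and 0 rose in control and 9 fell and 1 rose in Vegfc-deficient mice. Of the 7 mitochondrial genes 3 fell and 0 rose in control and 3 fell and 2 rose in Vegfc-deficient mice, beside the same shares of all genes, 24.1% lower and 26.3% higher in control and 27.7% and 30% in Vegfc-deficient mice. Between the MI groups 0 of 67 passed, and the smallest unadjusted p-values in the edgeR fit belonged to Calm2 (log2 fold change -0.37, adjusted p = 0.584), Atp2b4 (0.53, adjusted p = 0.629) and Prkar2a (0.27, adjusted p = 0.639).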

How the data were processed

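RNA from left ventricular tissue of 11 mice, infarcted tissue in the MI groups, was sequenced from stranded mRNA libraries. The authors deposited raw read counts per Ensembl gene, 1 table per library and without normalization. Per the submitters' processing notes, cutadapt 1.13, STAR, HTSeq 0.6.1p1, DESeq2 1.14.1 and genome build mm10 were used, and the strand setting of counting is not given in the sources used here. Rows were joined by identifier, and GENCODE M21 gave the symbol for 24991 of 25006 genes.

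Groups came from sample titles. Counts were filtered by expression within groups, scaled by TMM and tested in 1 quasi-likelihood fit of all 11 libraries (edgeR 4.0.16, limma 3.58.1, R 4.3.3), with Benjamini-Hochberg adjustment over 14779 genes and a threshold of 0.05. A second fit replaced the library size with the Tnnt2 count. Both were run on simulated counts in which 200 genes changed and the reference gene was unchanged and free of noise. The simulation thus did not cover a Tnnt2 count that falls and varies, or as many changed genes as in these data. Log2 CPM used a prior count of 2. Ratios were compared by exact permutation of libraries within genotype. No replicate pair was alike within counting noise, and the labels say little on litters. The p-values of edgeR rest on the spread between these animals within groups. That spread was estimated for each gene over all groups together and moderated across genes, so a naive comparison also draws on the spread of the MI libraries. DESeq2 1.42.0 was used as an alternative.

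All 10 members were described in every comparison. From the wider list, up to 5 genes higher and 5 lower were named per MI comparison, by size of change among those passing in both genotypes, or, with none passing between genotypes, the 3 with the smallest p. The nearest gene by pattern was named for each tested member. The members, lists and tests were chosen with earlier results of these data known.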

Additional observations from a re-analysis of the deposited data

Results flagged for a closer look

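Sln entered no test that used the filter on all libraries. It had 35 reads in MI Vegfc-deficient library M900, above the limit of 3 reads that a count of 0 allows. This was also above the naive control libraries, where it had at most 1 read. The other MI Vegfc-deficient libraries had 0 reads. Myl4, an atrial myosin light chain gene, was highest in the same library at 8.85 CPM, against 4.01 to 7.46 CPM in the other 10 libraries. Myl7, another atrial gene, was at 2.14 CPM there, within the range of 1.12 to 6.16 CPM of the others, and Bmp10 was at 0. The sum of these atrial genes in M900, 10.99 CPM, was below the 11.8 CPM of naive control M45. The summed CPM of 4 genes of the Y chromosome was 1.84 in M900, at most 0.237 in the other MI libraries and 152 to 195 in the naive libraries. The part of atrial tissue in the Sln value, and a link of it to this Y-linked RNA, were not tested.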

How the results depend on the processing

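Counts of members called against naive tissue changed little with the processing. With DESeq2, its size factors in edgeR, no filter, a mean of at least 1 CPM, only the groups compared, limma-voom or a threshold of 0.01, 7 to 9 members were called in control and 6 to 8 in Vegfc-deficient mice, always lower. Leaving out each of the 11 libraries gave 7 to 9 and 7 to 8. The genotype comparisons and the interaction gave 0 members under every alternative run, and DESeq2 gave no adjusted p for the interaction of Slc8a1. Where 1 naive control library was left out, the lone library was taken to vary like the other groups.

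Relative to Tnnt2 the count ran from 2 to 4 in control and from 3 to 4 in Vegfc-deficient mice with a library left out, and was 2 in Vegfc-deficient mice with the geometric mean of 7 contractile genes as reference and 5 without a filter, where Sln entered through M900. The number of ratios that passed ran from 0 to 3, with 0 without either naive control library. Longest transcripts changed the place of 2 members in MI control and 3 in MI Vegfc-deficient tissue.

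Directions turned only for differences that had not passed. With a library left out, Slc8a1 after MI in Vegfc-deficient mice ran from -0.07 to 0.42. Between the MI genotypes, log2 fold changes ran from -0.05 to 1.14 for Ryr2, -0.12 to 1.18 for Atp2a2, -0.42 to 1.13 for Pln, -0.46 to 1.06 for Casq2 and -0.44 to 0.66 for Trdn. Between the naive genotypes they ran from -0.36 to 0.01 for Ryr2, -0.12 to 0.18 for Pln, -0.22 to 0.27 for Casq2, -0.03 to 0.12 for Cacna1c and -0.07 to 0.17 for Camk2d. For the interaction they ran from -0.01 to 1.30 for Atp2a2, -0.48 to 1.08 for Pln, -0.51 to 1.02 for Casq2, -0.70 to 0.41 for Trdn and -0.03 to 0.22 for Camk2d, and limma-voom gave -0.13 for Trdn. The cause of these turns was not tested. No paired analysis was possible because the animal numbers are not shared between groups.

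With 2 or 3 libraries per group, standard errors of the genotype differences reached 0.67 after MI, and MI tissue differed from naive tissue in sex markers as well as in injury.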
